A study of Mus musculus with 25 samples.

Results

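Lungs of mice on days 3 and 4 of calorie restriction (CR) were compared with lungs of fed mice from the first hours of the same experiment. The restricted group, CR 72-96 h, held 4 arrays, 2 from lungs taken 72 h and 2 from lungs taken 96 h after the daily food was cut by 2/3. The control group, fed 2-4 h, held 4 arrays, 2 from 2 h and 2 from 4 h after the restricted mice began their diet. All mice were C57BL/6, an inbred laboratory strain, and total lung RNA had been hybridised to Affymetrix MG-U74Av2 arrays, on which a group of short probes, called a probe set, reports 1 transcript. The 8 arrays were picked from the 24 arrays of this platform (25 in the series) by treatment and hour in their titles, with it known that their highest deposited signals lie in 1 range, 32154 to 47510. The series title speaks of alveoli, where lung exchanges gas, and of their loss under this diet.

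For the fed arrays, the descriptions put words for constant feeding next to the words for the 2/3 cut, and the arrays were read here as unrestricted controls. Age, sex and the number of animals behind an array are not stated. Arrays of 1 hour carry the letters a and b, and nothing says whether these were separate animals or repeat arrays of 1 RNA. The p-values between hours of 1 diet may therefore measure only technical spread. Those between diets also take in spread between hours, but may rest on 1 RNA per hour and count repeats as replicates. The restricted lungs were taken whole days after onset and the fed lungs 2 to 4 h later by the clock, so for any gene with a daily rhythm diet and hour of day cannot be told apart. Of 12422 non-control probe sets, 6761 reached their array's median signal on at least 2 of the 8 arrays and were tested, and the brightest probe set of each gene stood for 5276 genes. A gene dim in 1 group could thus be kept through the other group alone. Genes named below that reached the median on fed arrays only included Spib, Blk, Fcer2a, Cd22, H2-Ob, Ciita, Gzma, Dbp, Ighv14-2, Tbxa2r and Cd2. Others, such as Tat, Cxcl5, Lrp5 and Slc27a1, reached it on CR arrays only. For such genes the filter itself favoured a difference. Signals are linear intensities scaled to a common array median. Levels are means ± SD over 4 arrays, a fold is the larger geometric mean over the smaller, with its 95% confidence interval, and log2 differences are CR minus fed. A gene was called changed at an adjusted p under 0.05 (limma, Benjamini-Hochberg over the 6761 probe sets).

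When food is short, the adrenal cortex releases glucocorticoids, hormones whose receptor binds palindromic response elements in DNA and raises genes such as Fkbp5, Per1 and Zbtb16. Insulin falls at the same time, FOXO transcription factors become active, and tissues turn from glucose to fatty acids as fuel. Lung is a mosaic of epithelium, endothelium, fibroblasts and resident immune cells, and the immune cells include B cells and other cells that carry MHC class II, the molecules that show peptides to helper T cells.

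The lung label was borne out by Scgb1a1 of club cells, Sftpc and Sftpb of alveolar type II cells, Ager of type I cells and Cdh5 of endothelium, which lay between percentiles 98.4 and 99.98 of all probe sets by mean signal over the 8 arrays. The probe sets for Sftpd and Pecam1 were dim, at 133 and 246 signal units. Across all non-control probe sets, arrays of 1 hour correlated at r = 0.972 to 0.986 (4 pairs), arrays of different hours of 1 diet at 0.970 to 0.982 (8 pairs) and arrays of different diets at 0.954 to 0.976 (16 pairs). The 3′/5′ signal ratio of the actin control probes, a mark of RNA integrity, was 1.63 to 1.80 on the CR arrays and 1.48 to 2.37 on the fed arrays, with the highest value on fed 4 h 1b.

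The hours within each diet were compared with 2 arrays each, too few to show that they are alike. Between CR 96 h and CR 72 h, limma called 1 of 6761 probe sets (0.0148%), that of Cyp1a1, with 386 at an unadjusted p under 0.05. Between fed 4 h and fed 2 h it called 0 (0%), with 706 at an unadjusted p under 0.05. The fed 4 h signals lay 0.11 log2 above the fed 2 h signals at the median probe set after scaling to array medians, and the offset was -0.003 without rescaling.

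Between CR 72-96 h and fed 2-4 h, 843 of 6761 probe sets were called (12.5%), 477 higher (7.06%) and 366 lower (5.41%) in CR. Per gene, 671 of 5276 were called (12.7%), with 380 higher (7.2%) and 291 lower (5.52%), and the median log2 difference over all genes was 0.03. All 4 CR arrays lay above all 4 fed arrays for 567 genes (10.7%) and below them for 413 genes (7.83%). Of the 15 genes with the largest rises, 6 belonged to the glucocorticoid list, and of the 15 with the largest falls, 4 were B-cell genes and 2 MHC class II genes. With a and b averaged, which counts them as repeats of 1 RNA, 367 of the 671 genes were still called. With array CR 72 h 1b left out the count of 843 became 509, with CR 96 h 1b left out 522, and with fed 2 h 1a left out 539. Against fed 2 h alone 465 probe sets were called, 352 higher and 113 lower, and against fed 4 h alone 556, 245 higher and 311 lower. The plot of 19 gene lists shows these members beside lists that stayed near the median of all genes.

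**Figure D1:**
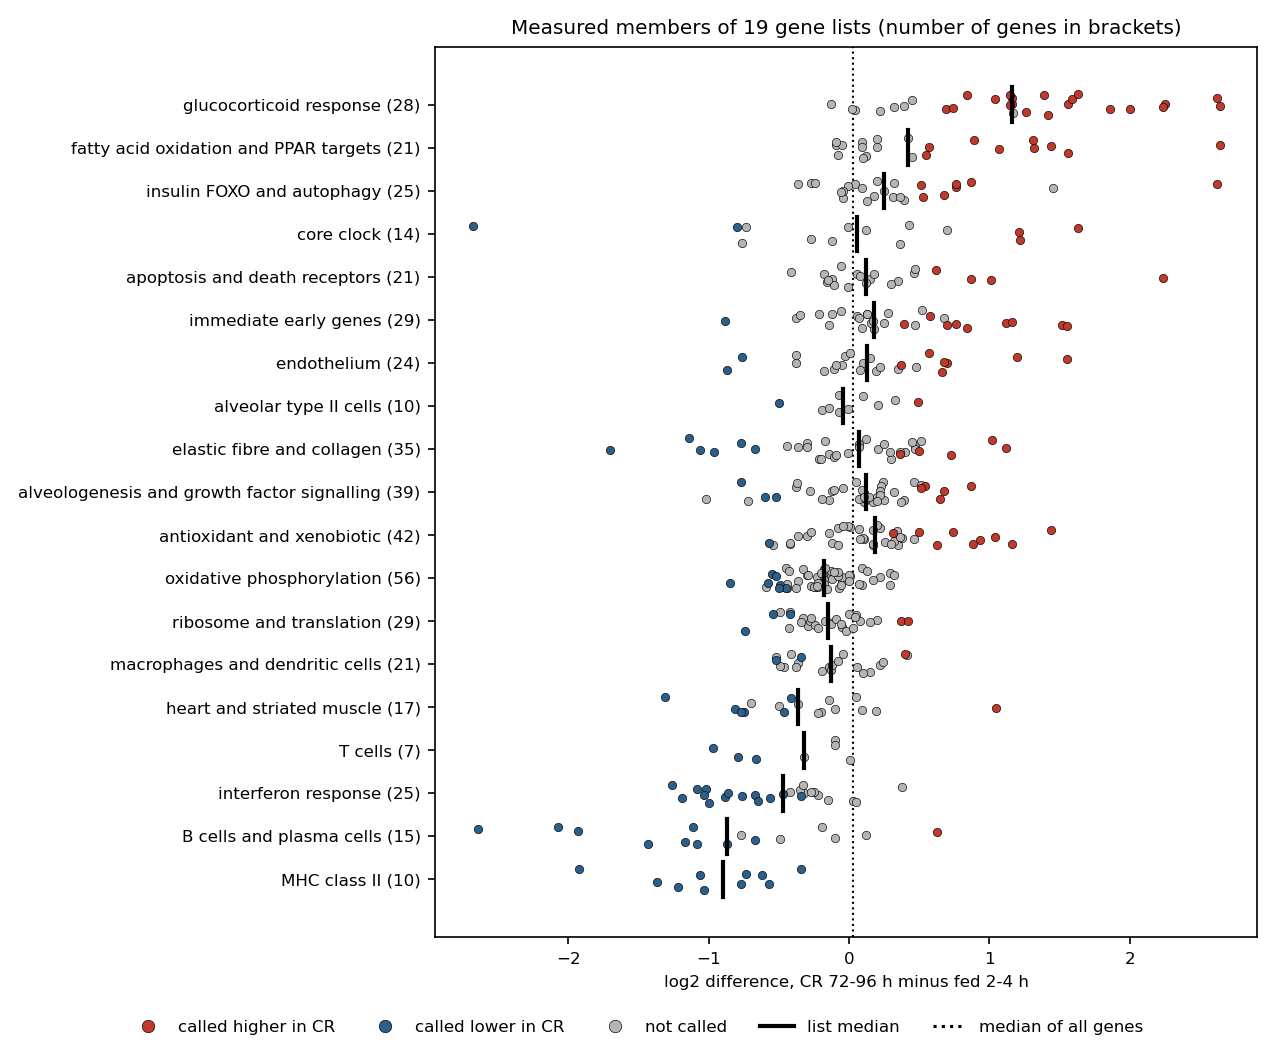
Each point is 1 measured gene of a list, placed by its log2 difference (CR 72-96 h minus fed 2-4 h), red where called higher in CR, blue where called lower, grey where not called; black bars are list medians and the dotted line is the median of all genes, 0.03. The glucocorticoid list has a median of 1.16 with 20 of 28 members called higher, and the MHC class II list a median of -0.90 with 10 of 10 measured members called lower. Of all genes, 7.2% were called higher and 5.52% lower.

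The largest fold among the genes called higher was that of Pdk4, the mitochondrial kinase that shuts pyruvate out of oxidation when fatty acids are burned. Its signal was 2099, 2310, 2182 and 2229 on the CR arrays, against 312, 316, 352 and 454 on the fed arrays. The groups lay far apart, and the CR arrays of both days were nearly equal. The difference was 6.22-fold (5.08 to 7.62, adjusted p = 3.12e-07).

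Ddit4, an inhibitor of the growth kinase mTOR induced by stress and by glucocorticoids, was the next. It had 4924, 4223, 6212 and 5761 signal units in CR lungs and 875, 893, 714 and 937 in fed lungs, a 6.14-fold rise (4.96 to 7.61, adjusted p = 3.25e-07). The lowest CR array stood well above the highest fed array. Map3k6, a stress-activated signalling kinase, had 2055 ± 381 in CR lungs, against 347 ± 72.5 in fed lungs, a rise of 5.94-fold (4.54 to 7.76, adjusted p = 2.04e-06).

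The glucocorticoid list holds mostly genes known to be raised by the hormone receptor, with the genes of the receptor and of cortisol enzymes. It shares Pdk4, Angptl4, Ddit4, Cdkn1a, Per1, Dusp1, Mt1, Mt2 and others with lists below, so those lists are not separate evidence for them. Of its 31 genes on the array 28 were measured. Of these, 20 were called higher in CR and 0 lower (71.4% called, beside 12.7% of all genes). The median was 1.16 against 0.03 for all genes, and 19 of the 20 were still called with a and b averaged. The summed signal of the list was 115614 to 145168 on CR arrays and 56982 to 65787 on fed arrays. Fkbp5, a co-chaperone that dampens the receptor, had 3539, 4443, 5118 and 4354 in CR lungs and 1049, 907, 939 and 767 in fed lungs. It was 4.76-fold higher (3.86 to 5.86, adjusted p = 8.38e-07), with no overlap. Zbtb16, a zinc-finger transcription factor, reached 8172, 9156, 5522 and 9164 in CR lungs, against 2128, 2610, 2026 and 1931 in fed lungs, and rose 3.63-fold (2.84 to 4.65). The CR 96 h 1a array was the lowest of the CR arrays for this gene and still above every fed array. Cdkn1a, an inhibitor of cyclin-dependent kinases that stops the cell cycle, rose 4.71-fold to 4513 ± 783 in CR lungs, against 953 ± 135 in fed lungs.

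Further members of the list rose by smaller factors, and some of those named here and in later lists were chosen after their values were seen. Cebpd and Cebpb, transcription factors of the acute-phase and fat-cell programmes, were 3.02-fold and 2.23-fold higher, and Klf9, a hormone-responsive zinc finger, 2.23-fold. Among feedback brakes, Errfi1, which inhibits the EGF receptor, rose 2.63-fold, Nfkbia, which holds NF-kB in the cytoplasm, 2.40-fold, Dusp1, a phosphatase for MAP kinases, 1.79-fold, and Sgk1, a kinase that regulates ion transport, 1.61-fold. Sult1a1, a sulfotransferase, rose 2.68-fold with closely spaced CR arrays. Tat, tyrosine aminotransferase, a classical hormone target of liver, had 201, 211, 408 and 595 in CR lungs and 68.2, 58.3, 19.4 and 23.0 in fed lungs. Because all fed arrays lay under the floor of 79.9 used for dim signals, its rise is a bound of at least 3.99-fold (adjusted p = 0.00905). Anxa1, Glul, Bcl6, Tgm2, Il1r2, Hif3a, Cdkn1c and the cortisol-activating enzyme gene Hsd11b1 were not called, and Hsd11b1 had 6696 ± 1015 in CR lungs and 6474 ± 732 in fed lungs.

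Promoter windows of RefSeq (GRCm38.p6, 250 bases before to 50 after a start site) existed for 17 of the 20 called members, 25 windows in all. The palindromic glucocorticoid response element (AGAACA, any 3 bases, TGTTCT), searched on both strands, was in 1 of them, a start site of Sgk1, and in 3 of the 32851 windows of the whole table (0.00913%). The E-box CACGTG, the site of clock factors, was in 5 of the 25, among them Per1, and in 7.15% of all windows. Response elements often lie far from a start site, and a match is a description and not a site of binding. The windows of Sgk1 and Per1, chosen after their values were seen, show 1 match each in capitals, Sgk1 from chr10:21993640-21993939 with the element starting at -189 from the start site (its E-box, at -246, is left in lower case), and Per1 from chr11:69098699-69098998 with the E-box starting at -166, both on the plus strand.
Sgk1: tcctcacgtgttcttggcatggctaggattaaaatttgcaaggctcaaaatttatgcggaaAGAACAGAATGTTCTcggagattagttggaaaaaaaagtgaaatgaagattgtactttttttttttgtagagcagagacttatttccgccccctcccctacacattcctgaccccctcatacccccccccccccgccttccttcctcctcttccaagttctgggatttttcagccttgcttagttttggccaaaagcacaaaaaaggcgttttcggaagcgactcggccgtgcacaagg
Per1: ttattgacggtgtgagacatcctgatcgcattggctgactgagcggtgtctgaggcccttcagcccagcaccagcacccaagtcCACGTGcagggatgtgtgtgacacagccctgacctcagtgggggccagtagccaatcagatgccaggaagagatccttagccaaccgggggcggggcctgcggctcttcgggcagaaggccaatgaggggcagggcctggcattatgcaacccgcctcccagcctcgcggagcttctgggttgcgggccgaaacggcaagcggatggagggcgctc

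**Figure D2:**
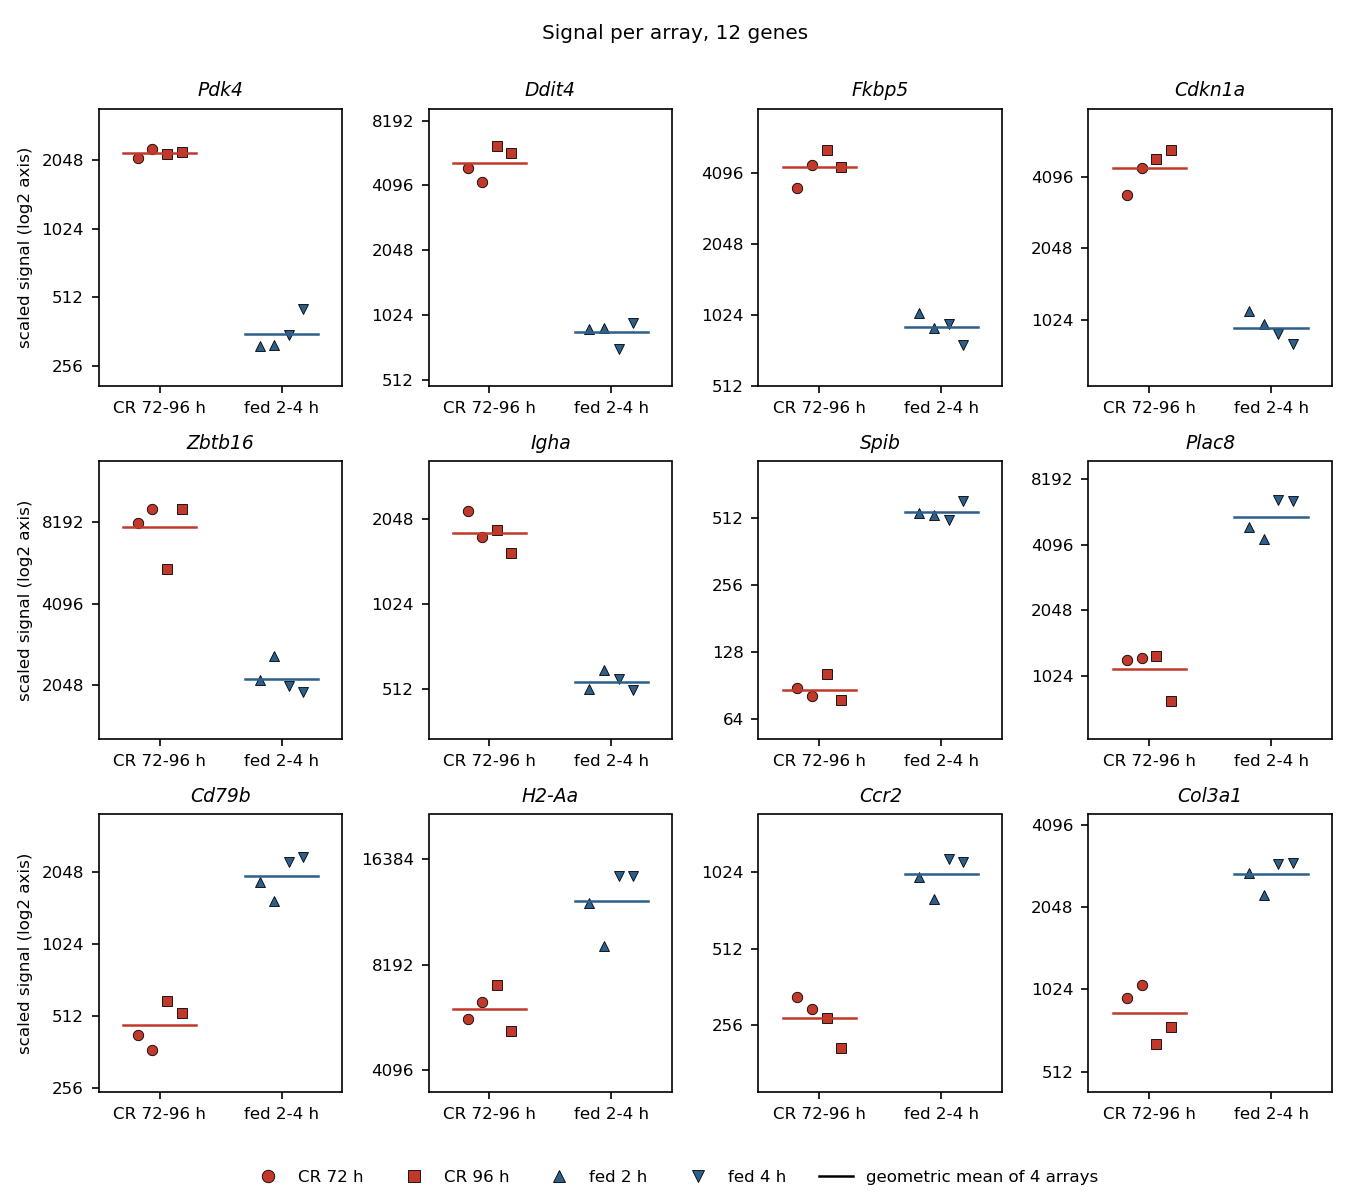
Scaled signal (log2 axis) of 12 genes on each array, CR 72-96 h left in red and fed 2-4 h right in blue, with marker shapes for the hours and a line at the geometric mean of 4 arrays. In each panel the CR and fed arrays do not overlap; Pdk4, Ddit4, Fkbp5, Cdkn1a, Zbtb16 and Igha are higher in CR and Spib, Plac8, Cd79b, H2-Aa, Ccr2 and Col3a1 lower.

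In fatty acid use, 5 of 7 measured genes of lipid uptake and release rose, and 1 of 7 of beta oxidation. Of 21 measured genes of fatty acid oxidation and PPAR targets (27 on the array), 9 were called higher and 0 lower (42.9% called, beside 12.7% of all genes), a median of 0.42. With a and b averaged, limma still called 7 of the 9, without Lipe (adjusted p = 0.0985), whose groups overlapped, and Acadl (0.115). Slc27a1 passed the filter through the CR arrays alone, so its place among the 9 depended on a high CR signal. Lpl, lipoprotein lipase, which frees fatty acids from circulating lipoproteins, had 4724, 5191, 4837 and 5550 in CR lungs and 2020, 1669, 1903 and 1883 in fed lungs, 2.72-fold higher (2.30 to 3.21, adjusted p = 4.31e-06). Its inhibitor Angptl4 rose 2.95-fold to 2206 ± 106 in CR lungs, against 755 ± 129 in fed lungs, and both groups were tight. Acot1, an acyl-CoA thioesterase, rose 2.47-fold, Slc27a1, a fatty acid transporter, 2.50-fold, Lpin1, a phosphatidate phosphatase and transcriptional partner of PPAR, 2.10-fold, and Pnpla2, adipose triglyceride lipase, 1.85-fold. Of the 7 measured enzymes of beta oxidation only Acadl was called, 1.46-fold higher with overlapping groups (adjusted p = 0.0475). Of the 3 measured genes of the carnitine shuttle limma called 0 (0 at an unadjusted p under 0.05), and Cpt1a had 5706 ± 485 in CR lungs and 4973 ± 329 in fed lungs. Another Angptl4 probe set was also called higher, and a dimmer one was not (log2 0.46, adjusted p = 0.618).

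In lipid synthesis the share called was near that of all genes. Of 12 measured genes of fatty acid and triglyceride synthesis, 0 were called higher and 2 lower (16.7%, beside 12.7% of all genes), Thrsp, a regulator of lipogenesis, 1.81-fold, and Scd1, stearoyl-CoA desaturase, 1.41-fold. Scd1 had 19454, 18909, 21496 and 17687 in CR lungs, against 31615, 26457, 25681 and 25720 in fed lungs. Of 12 measured genes of cholesterol synthesis limma called 0 (2 at an unadjusted p under 0.05), with a median of -0.12. In the insulin, FOXO and autophagy list, 7 of 25 measured genes were called higher and 0 lower (28% called, beside 12.7% of all genes), a median of 0.25. Beside Ddit4 these were Foxo3, a transcription factor held inactive by insulin signalling, 1.82-fold, Sesn1, an mTOR inhibitor, 1.70-fold, Igfbp6, a binding protein of insulin-like growth factors, 1.69-fold, Igf1r, 1.61-fold, Ulk1, the kinase that starts autophagy, 1.45-fold, and Bnip3, a mitophagy receptor, 1.42-fold. With a and b averaged, 5 of the 7 were still called, without Ulk1 and Bnip3. Irs2 was near the floor in fed lungs, 71.6 ± 8.59, and spread widely in CR lungs, 304 ± 241, and was not called (adjusted p = 0.156). Of 15 measured genes of the amino acid response, 2 were called higher, Nupr1 1.61-fold and Slc3a2 1.42-fold, and 1 lower, Mthfd2 1.51-fold (20% called).

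Clock genes split between both directions. Of 14 measured core clock genes, 3 were called higher, Per1, Cry1 and Arntl, and 2 lower, Dbp and Bhlhe40 (35.7% called, beside 12.7% of all genes). Per1, a repressor of the loop that glucocorticoids also raise, had 1371, 1429, 1203 and 2374 in CR lungs and 492, 464, 526 and 513 in fed lungs, 3.09-fold higher (adjusted p = 0.000101). Cry1, its partner, rose 2.33-fold to 1830 ± 314 in CR lungs, against 783 ± 105 in fed lungs. Both were called against fed 2 h alone and against fed 4 h alone. Dbp, an output factor with a large daily swing, had 54.9, 74.7, 29.6 and 82.8 in CR lungs, against 247 and 353 at fed 2 h and 845 and 977 at fed 4 h. It was at least 6.43-fold lower in CR (adjusted p = 0.00115), since 3 of 4 CR arrays lay under the floor.

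Clock values varied with the fed hour used. For Dbp, against fed 2 h alone, the log2 difference was -1.87 (adjusted p = 0.0918) and against fed 4 h alone -3.50 (adjusted p = 0.000375). Arntl, the activator BMAL, had a log2 difference of 0.66 against fed 2 h (adjusted p = 0.0707) and of 1.77 against fed 4 h (adjusted p = 0.000913). Bhlhe40 had -0.38 against fed 2 h (adjusted p = 0.245) and -1.22 against fed 4 h (adjusted p = 0.0029). With a and b averaged, limma no longer called Bhlhe40 (adjusted p = 0.0709). Nr1d1 and Nr1d2, the REV-ERB repressors, had log2 differences of -0.17 and -0.35 against fed 2 h and -1.30 and -1.16 against fed 4 h, with adjusted p of 0.00604 and 0.0154 at the later hour. Between fed 4 h and fed 2 h themselves these genes did not pass the test, with log2 differences of 1.62 for Dbp, 1.13 for Nr1d1, 0.81 for Nr1d2, 0.83 for Bhlhe40 and -1.11 for Arntl (adjusted p = 0.221 to 0.349). The clock hour of the fed arrays moves with these values, and its part was not tested.

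**Figure D3:**
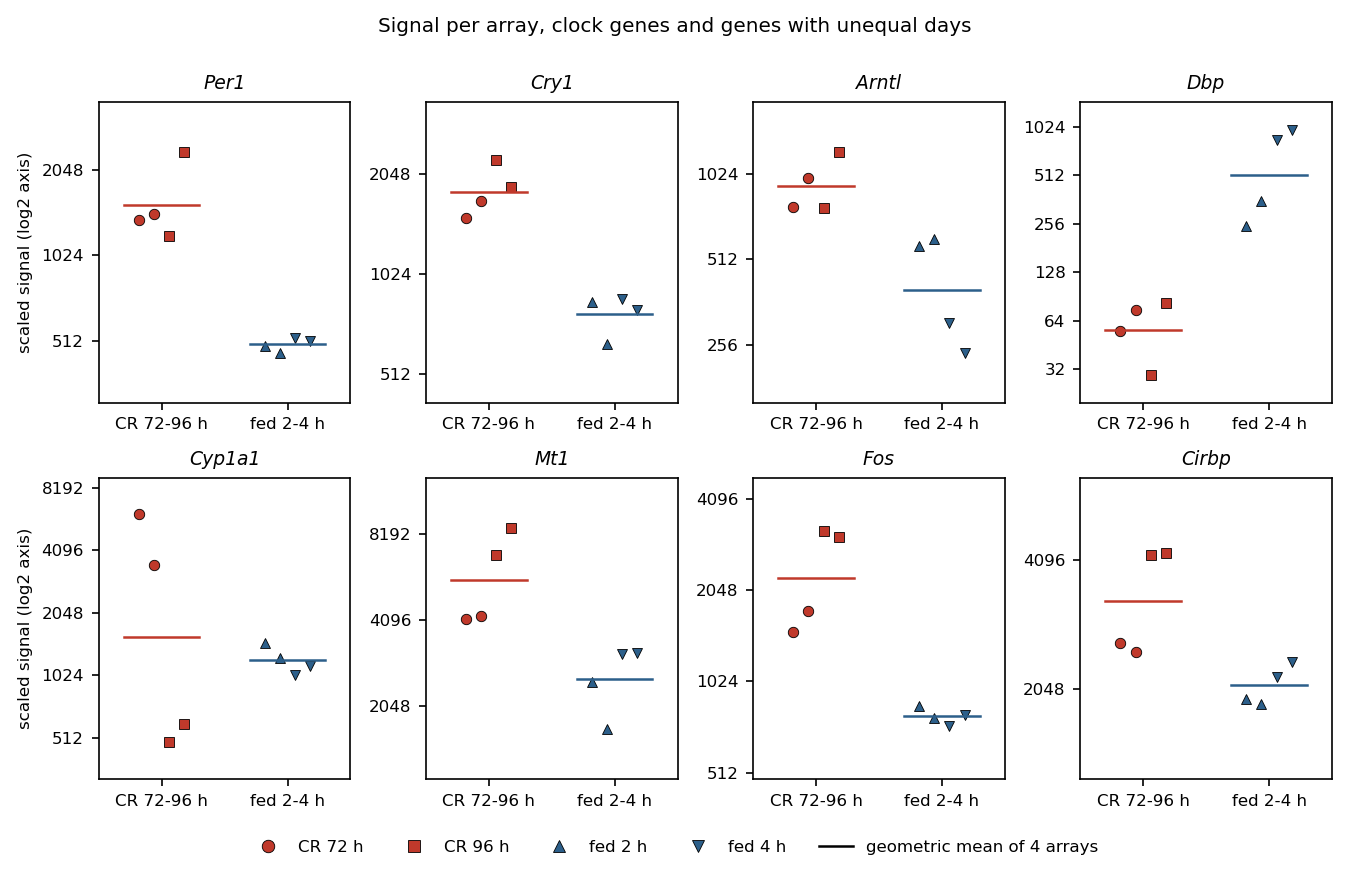
Scaled signal (log2 axis) on each array, CR left in red (circles 72 h, squares 96 h) and fed right in blue (triangles up 2 h, down 4 h), lines at geometric means. Fed arrays of both hours lie close together for Per1 and Cry1 and apart for Arntl and Dbp, and CR 72 h and CR 96 h arrays lie apart for Cyp1a1, Mt1, Fos and Cirbp; of these differences within a diet only that of Cyp1a1 passed the test.

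B-cell genes were lower in restricted lungs. Of 15 measured genes of the B-cell and plasma-cell list (19 on the array), 9 were called lower and 1 higher. The median was -0.87, and 66.7% were called, beside 12.7% of all genes. With a and b averaged 8 of these 10 were still called, without Jchain and Cd22. Spib, Blk, Fcer2a and Cd22 passed the filter through the fed arrays alone, so their place among the 9 depended on a high fed signal. The summed signal was 11101 to 12927 on CR arrays and 17197 to 20604 on fed arrays. Cd79b, a chain of the B-cell receptor, had 425, 368, 590 and 528 in CR lungs and 1846, 1542, 2248 and 2365 in fed lungs, 4.20-fold lower (3.23 to 5.45, adjusted p = 9.96e-06). Ms4a1, the surface protein CD20, was 2.69-fold lower, Cd79a 2.25-fold, Blk 2.15-fold, Cd37 2.11-fold, Ighm, the IgM heavy chain, 1.83-fold and Cd22 1.59-fold. Fcer2a, the low-affinity IgE receptor, was at least 3.81-fold lower by geometric means with dim arrays at the floor, and the CR 96 h 1a array stood apart at 253, beside 50.2 to 80.1 on the other CR arrays. In bulk tissue, fewer cells of a type and less RNA per cell cannot be told apart.

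Antibody genes of the IgA class went the other way. Igha, the IgA heavy chain, had 2187, 1776, 1870 and 1561 in CR lungs and 512, 600, 557 and 511 in fed lungs, 3.38-fold higher (2.78 to 4.09, adjusted p = 2.96e-06). Jchain, which joins IgA and IgM chains into polymers, rose 1.55-fold to 593 ± 74.0 in CR lungs, against 388 ± 85.2 in fed lungs. The plasma-cell genes Xbp1 and Sdc1 were not called, with log2 differences of 0.12 and -0.10. A variable-segment probe set annotated as Ighv14-2 was 3.96-fold lower, and it passed the filter through the fed arrays alone. Immunoglobulin segments are close relatives, so the assignment of that probe set to 1 segment is uncertain. Spib, a transcription factor of B cells and plasmacytoid dendritic cells, was 6.25-fold lower on its brighter probe set, 87.2 ± 10.7 in CR lungs against 547 ± 48.5 in fed lungs, while its other probe set was not called (log2 0.07, adjusted p = 0.889).

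The MHC class II list holds the class II chains and the proteins that load and regulate them. Of its 11 genes on the array 10 were measured, and these 10 were called lower, a median of -0.90 beside 5.52% of all genes called lower. With a and b averaged 6 of the 10 were still called, without Cd74 (adjusted p = 0.0512), H2-Oa (0.0908), Ciita (0.106) and Ctss (0.15). Summed, they reached 34622 to 41569 on CR arrays and 54436 to 75696 on fed arrays. H2-Aa, an alpha chain, had 5756, 6416, 7180 and 5318 in CR lungs and 12273, 9252, 14678 and 14677 in fed lungs, 2.04-fold lower (1.62 to 2.57, adjusted p = 0.00079). H2-Eb1 was 2.33-fold lower, H2-Ab1 2.08-fold and the invariant chain Cd74 1.48-fold. The loading factor H2-DMb1 was 2.59-fold lower and H2-DMa 1.70-fold. H2-Ob, a loading inhibitor typical of B cells, was at least 3.77-fold lower, and its partner H2-Oa 1.54-fold. Ciita, the co-activator that controls class II transcription, was dim and 1.66-fold lower, 226 ± 22.3 in CR lungs against 376 ± 40.2 in fed lungs. Both Ciita and H2-Ob passed the filter through the fed arrays alone. B cells carry class II, and the part of the lower B-cell signal in these values was not tested. Class II promoters are known for a conserved Y box, an inverted CCAAT, near the start site. Promoters of 3 H2 genes on chromosome 17 are shown, chosen because their windows hold this box. The windows of H2-DMa, H2-DMb1 and H2-Ob, also called lower, held no exact match to it. Of 8 windows of 7 genes, the Y box CTGATTGG was in 3, those of H2-Aa, H2-Eb1 and H2-Oa, against 4.1% of all windows, and the shorter CCAAT, which lies within it, was in 6, against 37.4%. These motifs were added after the values were seen. The windows, with the Y box in capitals and in H2-Aa also the cAMP-type element TGACGTCA, come from chr17:34287774-34288073 on the minus strand (H2-Aa), chr17:34305617-34305916 on the plus strand (H2-Eb1) and chr17:34092129-34092428 on the plus strand (H2-Oa), and the Y box starts at -51 in H2-Aa, at -62 in H2-Eb1 and at -46 in H2-Oa.
H2-Aa: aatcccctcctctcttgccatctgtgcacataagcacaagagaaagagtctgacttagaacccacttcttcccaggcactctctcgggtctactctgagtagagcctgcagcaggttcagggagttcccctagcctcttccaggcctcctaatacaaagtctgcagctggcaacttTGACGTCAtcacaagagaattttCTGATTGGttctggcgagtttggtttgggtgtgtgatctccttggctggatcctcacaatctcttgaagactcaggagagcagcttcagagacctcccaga
H2-Eb1: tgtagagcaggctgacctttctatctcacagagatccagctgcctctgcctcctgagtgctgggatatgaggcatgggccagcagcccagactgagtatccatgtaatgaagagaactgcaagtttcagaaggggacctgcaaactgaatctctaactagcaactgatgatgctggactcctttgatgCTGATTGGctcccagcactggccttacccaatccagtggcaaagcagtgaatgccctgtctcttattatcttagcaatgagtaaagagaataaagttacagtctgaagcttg
H2-Oa: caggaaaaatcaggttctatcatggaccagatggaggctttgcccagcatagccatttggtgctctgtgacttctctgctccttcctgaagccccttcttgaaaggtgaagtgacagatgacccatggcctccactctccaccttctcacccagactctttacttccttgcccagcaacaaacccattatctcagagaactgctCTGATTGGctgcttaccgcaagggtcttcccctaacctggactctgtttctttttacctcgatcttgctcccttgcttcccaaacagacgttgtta

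Interferon-response genes were lower as well. Of 25 measured (32 on the array), 14 were called lower and 0 higher (56% called, beside 12.7% of all genes). The median was -0.47, and 9 of the 14 were still called with a and b averaged. The summed signal was 37434 to 42572 on CR arrays and 50067 to 59376 on fed arrays. Gbp3 and Gbp2, guanylate-binding GTPases of host defence, had log2 differences of -1.26 and -1.08, and Gbp2 measured 987, 1099, 778 and 850 in CR lungs against 1847, 1737, 2222 and 1997 in fed lungs. Isg15, a ubiquitin-like modifier, was 2.28-fold lower, Iigp1 2.00-fold, and the immunoproteasome subunits Psmb10, Psmb9 and Psmb8 2.04-fold, 1.84-fold and 1.82-fold. Rsad2, Ifit1, Ifit3, Usp18, Irf1 and Irf7 were not called, with log2 differences from -0.15 to -0.42.

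Other immune genes among the largest falls were Plac8 and Ccr2. Plac8, a cysteine-rich protein of myeloid and lymphoid cells, had 1218, 1237, 1263 and 786 in CR lungs and 4920, 4360, 6581 and 6474 in fed lungs, 4.97-fold lower (3.80 to 6.50, adjusted p = 4.31e-06). Ccr2, the chemokine receptor of inflammatory monocytes, was 3.67-fold lower, at 278 ± 51.4 in CR lungs and 1017 ± 160 in fed lungs. Gzma, a protease of cytotoxic granules, was 3.34-fold lower and Ccl5, a T-cell chemokine, 2.36-fold; these 2 were the measured genes of 12 NK genes on the array. Of 7 measured T-cell genes of 17 on the array, 3 were called lower, Thy1, Cd2 and Zap70 (42.9% called, beside 12.7% of all genes). Gzma and Cd2 passed the filter through the fed arrays alone, so their place among these calls depended on a high fed signal. Cd4 and Lat had log2 differences of 0.01 and -0.10. With a and b averaged, limma no longer called Thy1 (adjusted p = 0.0509) or Cd2 (adjusted p = 0.0557). Of 21 measured macrophage and dendritic-cell genes 3 were called (14.3%, beside 12.7% of all genes), and 0 of the 3 with a and b averaged, where limma gave adjusted p of 0.0603 to 0.15. Of the 3, 1 was called higher, Chil3, a chitinase-like protein, 1.32-fold, and 2 lower, Fabp5 1.44-fold and Ctss, a protease that trims the invariant chain, 1.27-fold. The summed signal of the 21 genes overlapped, 72397 to 78509 on CR arrays and 67225 to 76884 on fed arrays. Mmp12, the macrophage elastase, was 2.79-fold lower, at 314 ± 108 in CR lungs and 846 ± 171 in fed lungs.

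**Figure D4:**
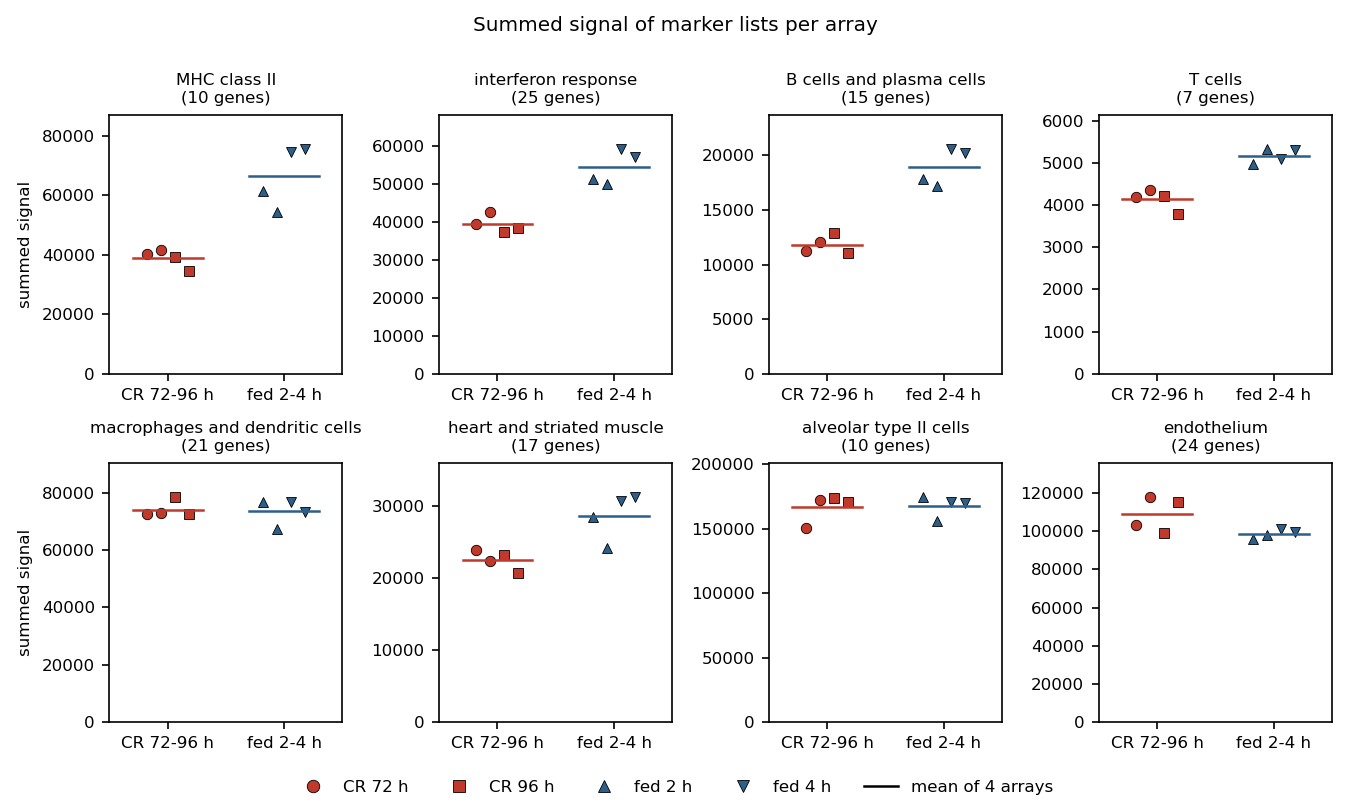
Summed scaled signal of the measured genes of 8 lists on each array, CR 72-96 h left in red and fed 2-4 h right in blue, with lines at the means of 4 arrays; bright probe sets dominate a sum. CR and fed arrays do not overlap for MHC class II, interferon response, B cells, T cells and heart genes, and they overlap for macrophages, alveolar type II cells and endothelium.

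Chemokines and receptors changed in both directions, 3 of 22 measured genes of the list higher and 4 lower (31.8% called, beside 12.7% of all genes). Cxcl5, an epithelial chemokine for neutrophils, had 438, 467, 252 and 289 in CR lungs and 129, 86.0, 44.8 and 62.5 in fed lungs, at least 3.81-fold higher (adjusted p = 0.0034). Il6ra and Il4ra, receptor chains for interleukins, were 2.12-fold and 1.57-fold higher. Cxcl12, a stromal chemokine for lymphocytes and progenitors, was 1.85-fold lower, at 1217 ± 120 in CR lungs and 2239 ± 82.5 in fed lungs, on its brightest probe set; of the other two, 1 was called lower and 1 was not called (log2 -0.39). Of 10 measured neutrophil and mast-cell genes, Lcn2, an iron-binding acute-phase protein also made by epithelium, rose 1.67-fold on 1 of 2 probe sets (the other, log2 0.22, was not called), and S100a8, S100a9 and Camp were called lower (40% of the list called). With a and b averaged, limma no longer called S100a8, S100a9 or Camp (adjusted p = 0.0605, 0.0969 and 0.0944). S100a8 had 503 and 508 at CR 72 h and 1417 and 950 at CR 96 h, against 1407 to 1891 in fed lungs, so the CR 96 h 1a array lay within the fed range.

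Matrix genes moved in both directions. Of 35 measured genes of elastic fibre and collagen, 5 were called higher and 6 lower (31.4% called, beside 12.7% of all genes), a median of 0.07. Col3a1, type III fibrillar collagen, had 955, 1065, 646 and 747 in CR lungs and 2718, 2270, 2939 and 2975 in fed lungs, 3.24-fold lower (2.54 to 4.13, adjusted p = 2.7e-05), and all 3 of its probe sets were called lower. Col1a1 was 1.95-fold lower, Col5a2 1.59-fold with overlapping groups, and Serpinh1, the collagen chaperone, 2.09-fold, while Col1a2 was not called (2327 ± 344 in CR lungs, 2455 ± 199.5 in fed lungs). The microfibril protein Mfap5 was 2.21-fold lower on its brighter probe set, and its other probe set was not called (log2 -0.47). Ccn2, a matricellular growth factor, rose 2.18-fold, and Lox, which cross-links elastin and collagen, 2.02-fold. Eln, elastin itself, had 8932 ± 1236 in CR lungs and 6388 ± 1551 in fed lungs and was not called (log2 0.51, adjusted p = 0.0653). Of 20 measured proteases and inhibitors, Timp3 and Plat were higher, and Mmp12, Gzma and Ctss lower (25% called).

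Among 39 measured genes of alveolar growth, 5 were called higher and 3 lower (20.5%, beside 12.7% of all genes), and Tgfb3, Pdgfa and Smad6 lost the call with a and b averaged (adjusted p = 0.0597, 0.103 and 0.0649). The rises were in the Notch ligand Dll1 (1.83-fold, groups overlapping), the receptor Notch2, the VEGF receptor Flt1, and Id1 and Smad6, targets of BMP signalling. The falls were in Id2, a helix-loop-helix inhibitor, 1.71-fold, and the ligands Tgfb3, 1.52-fold, and Pdgfa, which recruits the myofibroblasts of septa, 1.43-fold. Of 10 measured alveolar type II genes, Ctsh was 1.40-fold higher and Scd1 lower (20% called). Sftpc had 32650 ± 6059 in CR lungs and 32430 ± 2312 in fed lungs, and Sftpb had 27434 ± 3333 in CR lungs and 21882 ± 3347 in fed lungs, and neither was called. Of 5 type I genes limma called 0 (0 at an unadjusted p under 0.05), and of 6 airway genes 1 (16.7%), Foxj1, the master factor of motile cilia, 1.58-fold higher.

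Endothelial genes shifted in part. Of 24 measured, 7 were called higher and 2 lower (37.5% called, beside 12.7% of all genes). The 3 measured genes listed under flow response, a group made without regard to direction, were higher. These were Klf2, a transcription factor induced by laminar shear, 2.94-fold (2.36 to 3.65), Klf4 1.62-fold and Edn1, endothelin, 1.58-fold. With a and b averaged, limma no longer called Edn1 (adjusted p = 0.068). Klf2 had 1607, 2038, 1808 and 2287 in CR lungs and 569, 584, 727 and 756 in fed lungs. Lyve1, a receptor of lymphatic vessels, rose 2.29-fold, and Flt1, Vwf and Ramp2 rose by 1.61-fold, 1.49-fold and 1.29-fold. Emcn and Icam2 were 1.83-fold and 1.69-fold lower, and both Emcn probe sets were called. The pan-endothelial genes Cdh5, Cldn5 and Eng were not called, with log2 differences of 0.01, -0.03 and -0.05.

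Of 29 measured immediate early genes 9 were called higher and 1, Rgs2, lower (34.5% called, beside 12.7% of all genes). Fos, an AP-1 subunit, had 1488, 1755, 3213 and 3082 in CR lungs and 852, 778, 731 and 795 in fed lungs, 2.86-fold higher (adjusted p = 0.00062), with both CR 96 h arrays above both CR 72 h arrays. Its partners Jun and Junb were not called, with log2 differences of 0.06 and 0.47. Of 21 measured apoptosis genes, 4 were called higher and 0 lower (19% called, beside 12.7%), Cdkn1a, the survival gene Bcl2l1, 2.02-fold, the death receptor Fas, 1.83-fold, and the pro-apoptotic Bcl2l11, 1.53-fold. Another, dimmer Bcl2l11 probe set was not called (log2 0.05). Of 4 measured genes of the caspase group, Apaf1 included, limma called 0 (0 at an unadjusted p under 0.05), with log2 differences from -0.16 (Casp2) to 0.06 (Casp6), and among 3 measured inhibitors of cell-cycle kinases only Cdkn1a was. Of 9 measured cyclins and kinases and 8 replication genes limma called 0 (2 and 2 at an unadjusted p under 0.05). Of 5 measured genes of mitosis, Foxm1, a transcription factor of dividing cells, was 1.48-fold higher (adjusted p = 0.0169) and Stmn1, a tubulin-binding protein, 1.55-fold lower (adjusted p = 0.00982).

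Of 42 measured antioxidant and xenobiotic genes, 9 were called higher and 1, Prdx2, lower (23.8% called, beside 12.7% of all genes). Cyp2b10, a cytochrome P450 induced through the receptor CAR, had 12178, 14823, 15752 and 17470 in CR lungs and 7636, 7224, 8983 and 7628 in fed lungs, 1.90-fold higher. The metal-binding metallothioneins Mt1 and Mt2 rose 2.24-fold and 2.06-fold. Mt1 stood at 4132 and 4221 at CR 72 h and at 6920 and 8611 at CR 96 h, against 1697 to 3138 in fed lungs. Aldh3a1 rose 1.84-fold, Txnrd1 1.41-fold and Gsta3 1.55-fold, while Gclc, Gsr, Hmox1, Cat and Sod2 were not called. Of 21 measured genes of the heat-shock and cold list 3 were called higher and 0 lower (14.3% called, near the 12.7% of all genes). The chaperone genes Hspa1a and Hspa1b were 1.70-fold and 1.93-fold higher, and being near-identical copies they may share signal. For Hspa1b the groups overlapped, with a log2 difference of 1.47 at CR 72 h and 0.42 at CR 96 h (adjusted p = 0.401). The cold-inducible RNA-binding gene Cirbp was 1.58-fold higher, at 2613, 2493, 4212 and 4246 in CR lungs, against 1933, 1890, 2185 and 2362 in fed lungs.

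Cyp1a1, the target of the aryl hydrocarbon receptor, was the 1 gene called between the restricted days, in a test of 2 arrays against 2. Without the filter Cyp1a1 was not called. It had 6084 and 3474 at CR 72 h, 485 and 593 at CR 96 h, and 1458, 1244, 1023 and 1137 in fed lungs. The log2 difference CR 96 h minus CR 72 h was -3.10 (adjusted p = 0.000462). Pooled, the days cancelled, with a log2 difference of 0.38 from fed lungs (adjusted p = 0.757), whereas it was 1.93 at 72 h and -1.17 at 96 h against the same fed arrays. Cyp1b1, another target of that receptor, was higher when pooled, 2.72-fold, and its days did not differ by the test (log2 -0.74, adjusted p = 0.908).

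Of 56 measured subunits of oxidative phosphorylation, 7 were called lower (12.5%, beside 5.52% of all genes called lower) and 0 higher. The median was -0.18, 45 of the 56 lay below 0, and 2 of the 7 were still called with a and b averaged. Atp5e had the largest difference of the 7, 1.80-fold lower, at 1228 ± 253 in CR lungs and 2181 ± 232 in fed lungs. Of 29 ribosome and translation genes, Rps19, Rps24 and Rps3 were called lower and Eef2 and Eif4g2 higher (17.2% called, beside 12.7% of all genes). Of 30 proteasome genes 3 were called lower and 1 higher (13.3% called, near the share of all genes).

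Muscle transcripts also differed, and lung samples can carry cardiac muscle of the pulmonary veins. Of 17 measured heart and striated-muscle genes of 27 on the array, 6 were called lower and 1 higher (41.2% called, beside 12.7% of all genes). Among the 6 were the atrial light chains Myl7 and Myl4 at 1.75-fold and 1.68-fold (another Myl4 probe set, log2 -0.35, was not called). The 1 higher was Myh6, 2.08-fold. With a and b averaged, limma still called 4 of the 7, without Myl4 (adjusted p = 0.0621), Tnni3 (0.101) and Actc1 (0.106). The atrial gene Nppa and the sarcomere gene Tnnt2 were not called, with log2 differences of -0.14 and 0.05. The summed signal of the 17 genes was 20680 to 23878 on CR arrays and 24172 to 31211 on fed arrays. The smooth-muscle list gave 0 calls of 10 in limma (2 at an unadjusted p under 0.05), with a median of 0.06. Adipose, erythroid and thymus markers gave 1 call higher (Lipe) of 4, 1 lower (Car2) of 6 and 0 of 2 (0 at an unadjusted p under 0.05), and the part of such admixture in other results was not tested.

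A set of arrays with none in common with these was set beside this comparison. CR 24-48 h, 4 arrays, was compared with fed 12 h, 2 arrays, over the same 6761 probe sets. These arrays had highest deposited signals of 74441 to 98445, the fed lungs were taken 12 h off the clock hour of the restricted ones, and the actin 3′/5′ ratio was 1.80 to 3.81 in CR and 1.47 to 2.37 in fed lungs. Limma called 94 probe sets (1.39%), 59 higher (0.873%) and 35 lower (0.518%). Of the 380 genes called higher at CR 72-96 h, 309 also had a positive difference (81.3%, against 54.7% of all genes), and of the 291 called lower, 225 had a negative one (77.3%, against 45.3%). Of the 78 genes called at CR 24-48 h, 45 were called in the same direction at CR 72-96 h, which is 57.7% of those 78 and 6.71% of the 671 called genes.

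Pdk4 had a log2 difference of 2.64 at CR 72-96 h and 2.38 at CR 24-48 h, and it was called in both (adjusted p = 0.00172 at CR 24-48 h). Zbtb16, Acot1, Cdkn1a, Ddit4, Angptl4, Lpl, Bcl2l1 and Mt2 were also called in both. Fkbp5 had 2.25 at CR 72-96 h and 0.47 at CR 24-48 h, where it was not called (adjusted p = 0.318). Cd79a and Ccl5 were called lower in both, and Cd79b, Plac8 and Ccr2 were called at CR 72-96 h and not at CR 24-48 h, with log2 differences of -0.66, -1.01 and -0.13 there. Cry1 was higher at CR 72-96 h and had -0.37 at CR 24-48 h. Chil3 and Hspa1b were called higher at CR 72-96 h and lower at CR 24-48 h, where their log2 differences were -1.82 and -1.30. Whether the effects themselves differ between the days was not tested.

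**Figure D5:**
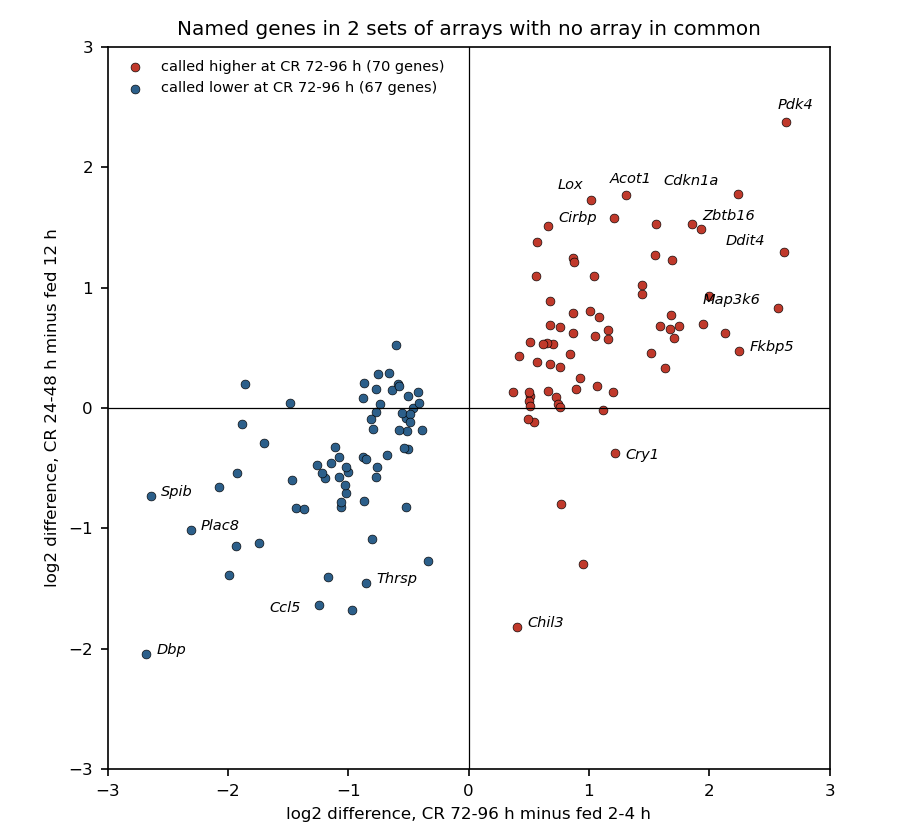
Each point is 1 of the 137 named called genes, with its log2 difference CR 72-96 h minus fed 2-4 h on the x axis and CR 24-48 h minus fed 12 h on the y axis, red where called higher and blue where called lower at CR 72-96 h. Of the 70 genes called higher 63 lie above 0 on the y axis, and of the 67 called lower 51 lie below it.

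Further large changes belonged to none of the lists. Slc10a6, a transporter of sulfated steroids, was 3.23-fold higher, at 3636 ± 323 in CR lungs and 1127 ± 131 in fed lungs. Rasd1, a small G protein induced by dexamethasone, rose 4.39-fold, and Sema7a, a membrane-bound semaphorin, 3.18-fold. Sorbs3, the adaptor vinexin of cell-matrix contacts, rose 3.27-fold, Spsb1, an adaptor of a ubiquitin ligase, 3.21-fold, and the WNT co-receptor Lrp5 at least 3.87-fold. Lrp5 had 392.3, 528, 92.8 and 533 in CR lungs, and the CR 96 h 1a array was barely above the highest fed array, at 90.1. Tbxa2r, the thromboxane receptor, was 3.63-fold lower, and Lst1, a leukocyte transcript of the MHC region, 2.76-fold. Of these, Tbxa2r passed the filter through the fed arrays alone.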

How the data were processed

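Mouse lung RNA was measured on Affymetrix MG-U74Av2 arrays. The authors deposited 1 intensity per probe set and array on a linear scale; trimmed means of 799.844 to 799.874 on the 24 arrays show a global scaling, and no source used here names the software. Arrays were brought to 1 common median, that of the 24 array medians, then raised to a floor of 79.9 (percentile 25) and put on the log2 scale. Of 12422 non-control probe sets, 6761 reached their array's median on 2 or more of 8 arrays and were kept. Probe sets were named from GEO's platform annotation and RefSeq, and 10833 had 1 symbol, 396 several and 1193 none. Groups were compared with limma 3.58.1 in R 4.3.3 (lmFit and eBayes with an intensity trend), with 8 arrays as 2 groups and Benjamini-Hochberg adjustment. Where at least 2 of 4 arrays of a group lay under the floor, a fold is a bound. Tables and figures used Python 3.11.15, numpy 2.4.6 and pandas 2.3.3.

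Genes were named by rule: among called genes with no overlap between groups, the 15 that rose most and the 15 that fell most, up to 6 called genes per list with the smallest p, and calls within a diet. The arrays, members and 35 lists were chosen with earlier results of these data known. On simulated data of 6761 probe sets for this comparison, 19 of 67 changes of 0.5 log2, 53 of 67 of 1 and 64 of 66 of 2 were recovered, with 6 false calls among 6561. The number of arrays limits the precision. The same letter did not pair arrays, since deviations of a from the group mean correlated at -0.023 to 0.139 between groups. Alternatives covered scaling, floor, filter, model, block and each array left out. The array of the other platform was not analysed here.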

Additional observations from a re-analysis of the deposited data

Results flagged for a closer look

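In 9 of 276 groups of 4 arrays, 1 array stood apart from the other 3 by Dixon's criterion, which chance meets in about 1 in 20 groups. Among CR arrays, CR 96 h 1b was the highest for Dbp at 82.8 and the lowest for Plac8 at 786 and for Isg15 at 273, and CR 96 h 1a was the highest for Fcer2a at 253. Among fed arrays, fed 2 h 1a was the highest for Lrp5 at 90.1, for Cxcl5 at 129 and for Scd1 at 31615, and fed 2 h 1b was the lowest for Rasd1 at 36.2 and for Ndufa8 at 1353. For Dbp and Lrp5 the other 3 arrays lay at the floor, so the gap is that of 1 array above it.

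Cyp1a1 was called between the days of restriction, with a log2 effect at 96 h minus that at 72 h of -3.10 (limma, adjusted p = 0.000462). Both effects use the same fed arrays.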

How the results depend on the processing

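The count of 843 probe sets between CR 72-96 h and fed 2-4 h was 421 without the filter, 343 in a fit of 11 group means over 24 arrays, 492 with a and b averaged, 454 with CR 72 h only, 395 with CR 96 h only, 465 with fed 2 h only and 556 with fed 4 h only. Leaving out each array in turn gave 509 to 971. With the letter as a replicate block it was 850, and with time as a random block 739. Without rescaling 1006 were called, 472 higher and 534 lower, and with quantile normalization 1031, 492 higher and 539 lower, against 477 higher and 366 lower. The other alternatives (floor, stricter filter, no trend, robust fit, 4 group means, fed 12 h added) gave 656 to 930. Between CR 96 h and CR 72 h the count of 1 was 5 without the filter, with Cyp1a1 not among them. Between fed 4 h and fed 2 h the count of 0 was 5 without the filter and 1 without the trend. Between CR 24-48 h and fed 12 h the count of 94 was 27 without the filter and 27 without the trend. For Cyp1a1 the pooled log2 difference of 0.38 was -1.17 with CR 96 h only, -0.27 without CR 72 h 1a and -0.00 without CR 72 h 1b, and ranged from -0.27 to 0.95 over the arrays left out in turn. Of 138 named genes, 52 kept direction and call under every alternative run, and 96 with each array left out in turn. The causes of these shifts were not tested. Dim signals near the floor limit folds to bounds.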
